A study of Mus musculus with 20 samples.

Results

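Mouse thymus grafts are compared here with arrays labelled as wild-type mouse thymus, read from Illumina expression arrays. Arrays were placed in groups by their labels, and the comparison covers 6 of the 20 arrays of the series, 4 labelled as thymus grafts at 10 wk and 2 labelled as thymocytes of wild-type mice. The grafts were of the F1(WB x B6/Ly5.1) cross and were described as autonomous thymus, and the wild-type animals were C57BL/6. All samples came from animals, either straight from single cell suspensions or after sorting, and the sources used here do not give which of these applied to a given array. The labels did not say whether arrays of a group came from separate mice, so the p-values below reflect the spread among arrays and that spread may be technical. Strain differed along with the group, and the chips did too, since grafts 1 and 2 were on one chip, grafts 3 and 4 on a second and both wild-type arrays on a chip without grafts. Group, strain and chip therefore cannot be told apart in this comparison.

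A thymus normally depends on progenitor cells that arrive from the bone marrow, pass through CD4 and CD8 double-negative (DN) stages under Notch signalling, rearrange their T cell receptor (TCR) genes with the Rag recombinase, and become CD4 CD8 double-positive cells before selection. A thymus transplanted into a host whose progenitors cannot compete can go on making T cells from its own resident progenitors, which is called autonomous thymopoiesis. The comparison asks how the transcripts of such grafts differ from those of a normal thymus.

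Values were log2 intensities that the authors had quantile normalized, which put the median of each array at 6.95. The background threshold was 7.12, which lies 3 SD above the mode of all values, and 12710 genes had a probe over this threshold on at least 2 of the 20 arrays. A gene is said to have risen, fallen or passed the test where the limma p-value, adjusted by Benjamini-Hochberg over the 12710 genes, was below 0.05. Differences are graft minus wild type on the log2 scale, and levels are compared between arrays and not between genes. In RNA of mixed cells, fewer cells of a type and less RNA per cell cannot be told apart.

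The 6 arrays did not hold the same mixture of cells, and this was measured before any comparison. Cd3e, a CD3 chain of the TCR complex, read 14.24, 13.90, 13.15 and 14.34 on grafts 1 to 4, against 10.10 on wild-type thymus 1 and 13.71 on wild-type thymus 3. Rag1, which cuts TCR genes during rearrangement, read 12.44, 12.24, 10.62 and 12.58 on the grafts, against 7.39 and 10.18 on wild-type thymus 1 and 3. Both genes were high on all 4 grafts, and wild-type thymus 1 had the lowest value of the 6 arrays for each. Camp, a granule peptide of neutrophils, read 6.97, 11.31, 7.93 and 6.66 on the grafts, against 13.99 and 10.32 on wild-type thymus 1 and 3. Alas2, the haem synthesis enzyme of red cell precursors, read 6.79, 12.59, 12.52 and 6.79 on the grafts, against 14.62 and 12.43 on wild-type thymus 1 and 3. Grafts 1 and 4 were at background for both of these genes, while grafts 2 and 3 and both wild-type arrays were above it.

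Whole marker lists were then read in the same way. The mean of 14 genes of the CD3 chains and proximal TCR signalling was 12.10, 12.02, 11.08 and 12.07 on grafts 1 to 4, against 8.86 on wild-type thymus 1 and 11.22 on wild-type thymus 3. Of 21 granulocyte genes, 1, 19, 16 and 1 were above background on grafts 1 to 4, against 21 and 18 on wild-type thymus 1 and 3, with list means of 6.87, 9.55, 8.10 and 6.84 on the grafts and of 12.68 and 8.85 on the wild-type arrays. The macrophage list had 5, 18, 19 and 5 of its 20 genes above background on the grafts, against 20 and 19 on wild-type thymus 1 and 3. Of the 6 arrays, wild-type thymus 1 was the highest for the granulocyte and macrophage lists and the lowest for the TCR list, which goes against its thymocyte label. The array is called wild-type thymus 1 below because that is its label, and whether the label is right was not tested. Wild-type thymus 3 is likewise named by its label, which was not tested either. Thymic epithelium, the scaffold of the organ, had a list mean near the background threshold on every array: its 12 measured genes averaged 7.33, 7.83, 7.15 and 7.28 on the grafts, against 7.22 and 7.24 on wild-type thymus 1 and 3, and the epithelial proteasome gene Psmb11 was between 7.04 and 7.12 on all 6. Of the 12, 4, 8, 4 and 4 were above background on the grafts, against 6 and 4 on wild-type thymus 1 and 3. Cldn4, a claudin, read 9.74, 9.20, 7.75 and 9.87 on the grafts, against 8.23 and 9.01 on wild-type thymus 1 and 3, and Tbata, a gene of thymic stroma, read 9.36 on graft 2 and was at background on the other 5 arrays. Arrays labelled as spleen of graft hosts also carried Rag1, a gene of lymphocyte precursors, at 13.63 and 13.47, and those labelled as wild-type spleen at 9.08 and 12.04, so they are named by label too.

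**Figure D1:**
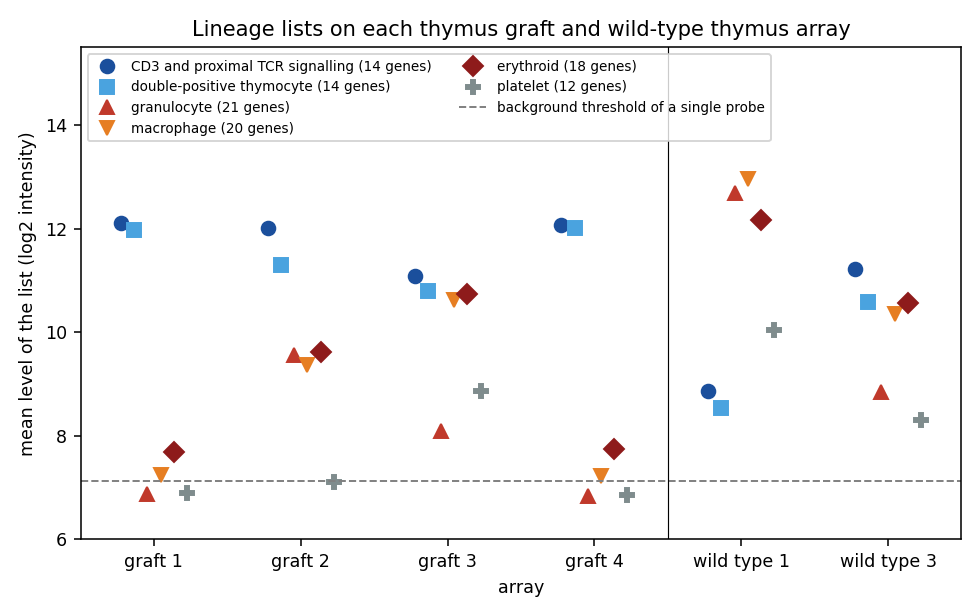
Mean level (log2 intensity, vertical axis) of 6 marker lists on each array, with the 4 grafts left of the 2 wild-type thymus arrays; each symbol is the mean of a list on 1 array, and the dashed line is the background threshold of a single probe, 7.12. On grafts 1 and 4 the granulocyte, macrophage, erythroid and platelet lists lie between 6.84 and 7.74, and on wild-type thymus 1 they lie between 10.04 and 12.95, while both T lineage lists are at their lowest there.

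Sex-linked transcripts also differed among the arrays of each label. Xist, the RNA that silences an X chromosome in female cells, read 10.18, 9.44, 6.75 and 9.42 on grafts 1 to 4, against 8.66 on wild-type thymus 1 and 7.52 on wild-type thymus 3. Kdm5d, a Y-linked histone demethylase, read 6.90, 6.80, 8.66 and 6.70 on the grafts, against 6.82 and 7.69 on wild-type thymus 1 and 3. Eif2s3y, a Y-linked translation factor gene, read 7.48 on graft 3 and 9.11 on wild-type thymus 3 and was at background on the other 4 arrays. Uty, another Y-linked demethylase gene, read 7.43, 7.31, 7.47 and 7.21 on the grafts, against 7.50 and 7.38 on wild-type thymus 1 and 3, and did not separate the arrays. Kdm5d and Eif2s3y were thus above the threshold on graft 3 and wild-type thymus 3 and on no other of the 6, and wild-type thymus 3 also had Xist above it.

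The grafts were not alike among themselves. Grafts 1 and 4, which came from different chips, differed by at least 2-fold at 10 of 12710 genes, 0.0787%, while grafts 1 and 2 of the same chip differed at 699. The 10 genes included Slc15a2, a peptide transporter, at 6.97 on graft 1 and 9.56 on graft 4, and the immediate-early factor Fos at 10.23 on graft 1 and 8.14 on graft 4. Over 4356 genes with a mean level above 9, the SD of the difference was 0.240 between grafts 1 and 4, against 0.715 between grafts 1 and 2. The sources used here do not give whether grafts 1 and 4 share a source, and results with their mean taken as 1 sample are given with the alternatives. Graft 3 differed from the other grafts at 1458 to 1690 genes and from wild-type thymus 3 at 409, 3.22% of the genes. Grafts 1, 2 and 4 differed from wild-type thymus 3 at 1632 to 1758 genes, and the grafts differed from wild-type thymus 1 at 2158 to 2887. The wild-type arrays, 1 and 3, differed from each other at 2382 genes, 18.7%. Arrays were also compared by the correlation across 12710 genes, which are not independent. The array nearest to graft 3 was a T-ALL array, a T cell leukaemia, of the group marked Rag- (r = 0.980). This was not particular to graft 3, since T-ALL arrays were also nearest to graft 2 (r = 0.962) and wild-type thymus 3 (r = 0.976). Graft 1 correlated most with graft 4, and graft 4 with graft 1 (r = 0.994). A host spleen array came second for both, at r = 0.973 and 0.969. For wild-type thymus 1 the nearest was a wild-type spleen array (r = 0.944).

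**Figure D2:**
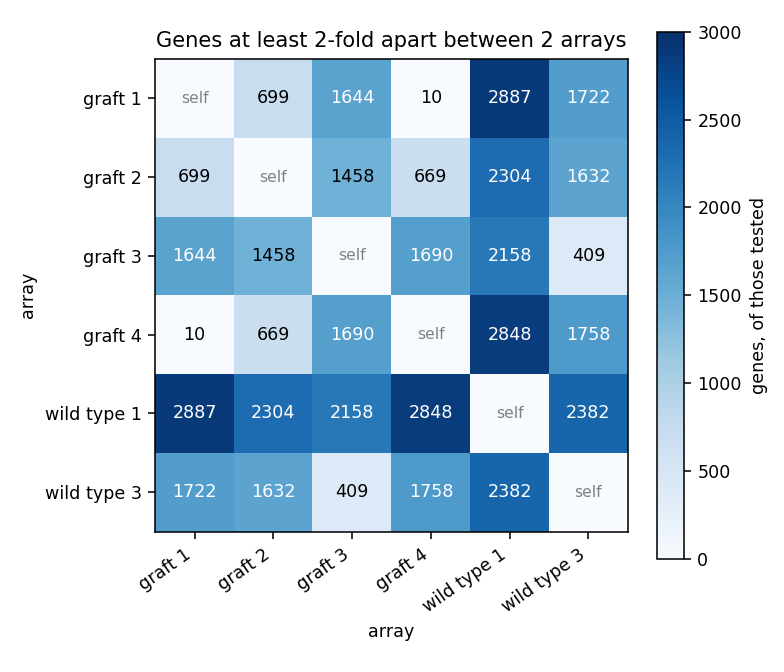
Number of genes, of 12710, that differ by at least 2-fold between each pair of the 6 arrays (rows and columns are arrays, colour and figure in each cell give the number). The smallest number is 10, between grafts 1 and 4, and the next is 409, between graft 3 and wild-type thymus 3.

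Against the wild-type label as a whole, 4 arrays against 2, few genes passed the test, and the clearest were a fibroblast growth factor homologue, a tubulin, a neuronal endosome protein, a matrix protein and a spectrin. Fgf13, Tubb2b, Nsg2, Smoc1 and Sptan1 rose in the grafts, and Lrp4, Dst, Cldn12, Eps8 and Stard13 fell. These are 5 genes in each direction, 0.0393% of the genes tested for the rises and 0.0393% for the falls. In all, 1353 genes (10.6%) had all 4 grafts above both wild-type arrays and 1018 (8.01%) had all 4 below, so that lack of overlap alone was common. At an unadjusted p below 0.05, 2578 genes differed. With chip as a random block 279 genes passed, in a fit whose estimated correlation within chips was -0.12, and with grafts 1 and 4 averaged as 1 sample 1 gene passed. Higher genes were 50% of those that passed, 100% of 3 after background subtraction and 62.5% of 8 after centring. Passing the test, not overlapping and lying at least 1 log2 unit from each wild-type array were met together by 5 higher genes (0.0393%) and by 1 lower gene, Lrp4 (0.00787%). Against wild-type thymus 1 and 3 in turn, Tubb2b differed by 3.99 and 3.45, Nsg2 by 3.92 and 2.67 and Smoc1 by 2.45 and 2.86. Sptan1 differed by 1.65 and 1.32, and Lrp4 by -2.19 and -1.39. Of the genes named here, only Fgf13 and Cldn12 also passed against wild-type thymus 3 alone, so the other calls needed wild-type thymus 1.

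Fgf13, on chromosome X, codes for an intracellular relative of the fibroblast growth factors that binds sodium channels and microtubules. It read 10.71, 10.62, 10.67 and 10.64 on grafts 1 to 4, against 6.92 and 7.04 on wild-type thymus 1 and 3. The grafts lay within 0.09 of each other in log2 level, and both wild-type arrays were at background. The mean was 10.66 ± 0.039 in the grafts (SD, n = 4) and 6.98 ± 0.085 in the wild-type arrays (SD, n = 2), a rise of at least 11.7-fold with an adjusted p of 0.00158 in limma (log2 difference 3.68, SE 0.43). Of its 2 other probes, one differed by 0.47 against wild-type thymus 1 and by 0.84 against wild-type thymus 3, and the other by 0.00 and by 0.21. The spleen arrays of graft hosts read 10.25 and 10.16 for Fgf13. The 7 T-ALL arrays had a median of 7.10 and reached 9.01, with 3 of them above background. Those labelled as wild-type spleen read 7.92 and 6.96.

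Tubb2b, a beta-tubulin isotype of neurons, read 13.85, 14.24, 14.16 and 13.92 on the grafts, against 10.05 and 10.59 on wild-type thymus 1 and 3. The groups did not overlap, and the grafts were 13.2-fold higher (log2 difference 3.72, SE 0.59, limma adjusted p = 0.0175). Of its 5 other probes, 4 were also higher in the grafts, by 1.03 to 2.94. The 7 T-ALL arrays read between 12.47 and 14.47 for Tubb2b, a range that holds the graft values, and the 2 wild-type thymus arrays had the lowest levels among all 20 arrays.

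Nsg2, a membrane protein of neuronal endosomes, read 12.59, 12.28, 10.64 and 12.56 on the grafts, against 8.10 and 9.35 on wild-type thymus 1 and 3. Graft 3 was the lowest graft and was still above both wild-type arrays (log2 difference 3.29, SE 0.59, limma adjusted p = 0.0400). Smoc1, a secreted matrix protein that binds calcium, read 10.79, 9.30, 8.81 and 10.20 on the grafts, against 7.32 and 6.91 on wild-type thymus 1 and 3 (log2 difference 2.66, SE 0.44, adjusted p = 0.0297). The host spleens, at 9.93 and 10.24, were as high as the grafts for Smoc1, and the T-ALL arrays reached 8.04. Sptan1, the alpha chain of non-erythroid spectrin, read 11.32, 11.04, 10.78 and 11.38 on the grafts, against 9.48 and 9.81 on wild-type thymus 1 and 3, a 2.80-fold rise (SE 0.21 on the log2 scale, adjusted p = 0.0121). The other Sptan1 probes, at 6.81 to 7.59 on the grafts, differed by 0.05 to 0.46 from wild-type thymus 1 and by 0.14 to 0.44 from wild-type thymus 3. The other Nsg2 probes differed by 0.16 to 3.65 and by 0.17 to 2.70. Among these 5 genes only Fgf13 passed the test in each of the 18 settings tried, while Sptan1 passed in 13, Tubb2b in 12, Smoc1 in 11 and Nsg2 in 8.

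The genes that fell were dim in both groups apart from Lrp4, a receptor that modulates Wnt signals. Lrp4 read 7.01, 7.04, 7.41 and 7.00 on the grafts, against 9.30 and 8.51 on wild-type thymus 1 and 3, and was 3.46-fold lower in the grafts (log2 difference -1.79, SE 0.26, limma adjusted p = 0.0121). Dst, a large linker of the cytoskeleton, fell by 1.02 on the log2 scale (adjusted p = 0.0400), and Cldn12, a claudin, fell by 0.91 (adjusted p = 0.0175). Eps8, an actin regulator, and Stard13 were at background on all 4 grafts and were at least 1.56-fold and at least 1.20-fold lower there (adjusted p = 0.0400 and 0.0306). The wild-type values of these 4 genes lay between 7.35 and 8.27. The other Lrp4 probe, at background on every array, differed by -0.07 and -0.05 from wild-type thymus 1 and 3. Another Dst probe differed by -0.94 and -0.36, and the remaining Dst probes by -0.28 to 0.20 and by -0.09 to 0.08. Of 17 settings, Cldn12 passed in 13, Lrp4 in 12, Stard13 in 8 and Dst and Eps8 in 7 each.

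**Figure D3:**
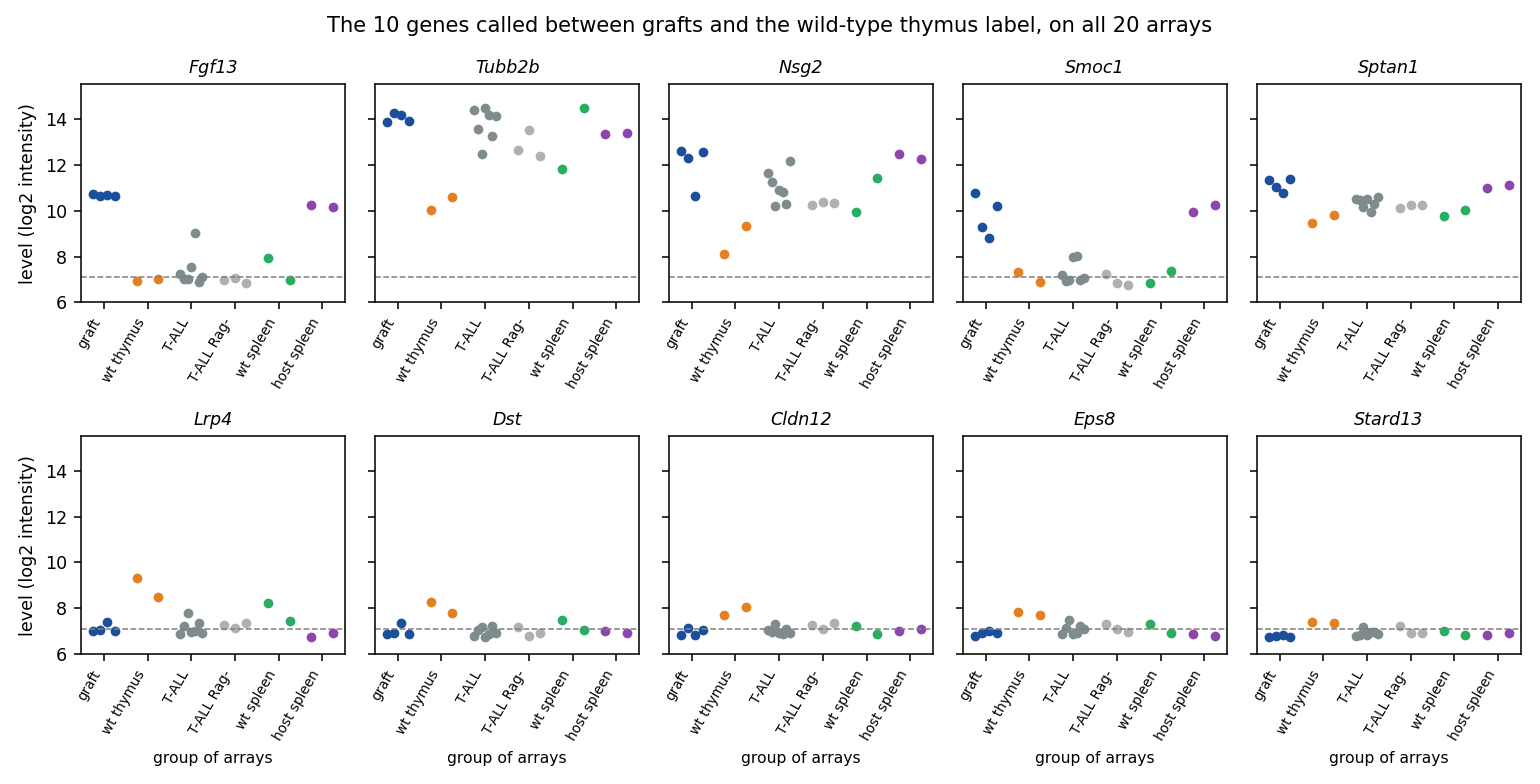
Level (log2 intensity, vertical axis) of the 10 genes that passed the test against the wild-type label, on all 20 arrays; each point is 1 array, groups run along the horizontal axis, T-ALL Rag- marks leukaemia arrays so labelled, and the dashed line is the background threshold, 7.12. Fgf13 is between 10.62 and 10.71 on the 4 grafts and at 6.92 and 7.04 on the wild-type thymus arrays.

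Promoter windows are shown for the 3 of the 5 genes that rose for which a RefSeq window existed. The windows run from 250 bases before to 50 bases after a transcript start and come from RefSeq on mouse build GRCm38.p6, with the most upstream start shown where a gene had several. Capitals mark the E-box motif CAGNTG on either strand, a motif read by the E proteins and other basic helix-loop-helix factors of thymocytes, which reads CANCTG on the reverse strand, so that CAGCTG matches on both. The Fgf13 window lies at chrX:59585523-59585822 on the minus strand, the Nsg2 window at chr11:32000169-32000468 on the plus strand and the Sptan1 window at chr2:29965310-29965609 on the plus strand.
Fgf13: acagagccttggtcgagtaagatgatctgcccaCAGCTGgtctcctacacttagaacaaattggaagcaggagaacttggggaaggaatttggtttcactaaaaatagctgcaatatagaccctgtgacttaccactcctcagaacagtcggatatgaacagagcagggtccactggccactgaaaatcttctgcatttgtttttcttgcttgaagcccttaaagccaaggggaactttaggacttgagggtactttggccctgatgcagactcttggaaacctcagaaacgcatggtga
Nsg2: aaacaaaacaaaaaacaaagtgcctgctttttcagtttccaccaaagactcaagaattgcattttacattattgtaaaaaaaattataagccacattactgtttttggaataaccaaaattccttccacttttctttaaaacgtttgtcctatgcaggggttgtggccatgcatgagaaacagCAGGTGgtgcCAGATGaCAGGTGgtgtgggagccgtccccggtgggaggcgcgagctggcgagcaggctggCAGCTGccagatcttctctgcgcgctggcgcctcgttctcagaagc
Sptan1: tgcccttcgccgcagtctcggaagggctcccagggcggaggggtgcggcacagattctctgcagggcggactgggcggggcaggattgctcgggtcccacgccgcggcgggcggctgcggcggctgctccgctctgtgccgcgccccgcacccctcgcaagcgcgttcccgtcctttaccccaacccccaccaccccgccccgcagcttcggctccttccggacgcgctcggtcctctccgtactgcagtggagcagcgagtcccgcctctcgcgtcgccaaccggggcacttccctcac
The motif was found 4 times in the Nsg2 window, once in the Fgf13 window and in no place of the Sptan1 window. Windows of the later starts, not shown, held 1 match for Nsg2 and none for Fgf13. Among genes that fell, the windows of Dst and Stard13 held 1 match each and those of Cldn12 none. Of 32851 windows of this length, 16892 held the motif, which is 51.4%, with a median of 1 match per window. A match says only that these letters are present.

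Against wild-type thymus 1, T lineage genes rose in the grafts and granulocyte, macrophage and interferon-response genes fell. In this comparison 525 genes rose (4.13% of those tested) and 906 fell (7.13%), and the lone array was assumed to vary like the arrays of the other groups. The median over all genes was 0.05. Higher genes were 36.7% of those that passed, 49.2% after background subtraction and 21.8% after centring on genes above background everywhere, which shifted the median by -0.115. T lineage and myeloid genes are those for which wild-type thymus 1 was already seen to depart from its label, so the counts below describe how far that array differed and are no independent finding on the grafts. The contribution of its myeloid RNA to each gene was not tested.

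Of 14 measured genes of the CD3 and proximal TCR list, 11 rose against wild-type thymus 1 and none fell, with a list median of 3.49. Cd3d, a CD3 chain, read 14.64, 14.48, 13.60 and 14.69 on grafts 1 to 4, against 10.10 on wild-type thymus 1 (log2 difference 4.25, SE 0.34, limma adjusted p = 7.83e-07). Cd6, a costimulatory receptor of T cells, was higher by 5.53 (SE 0.69, adjusted p = 8.63e-05). Of 14 double-positive thymocyte genes, 12 rose and none fell, with a median of 2.87. Cd8b1, the CD8 beta chain, differed by 4.51 (SE 0.65, adjusted p = 0.000324), and Dntt, the polymerase that adds nontemplated bases at TCR joints, by 4.55 (SE 1.41, adjusted p = 0.0467). Among T lineage transcription factors 6 of 17 rose, among them Bcl11b, which fixes T cell identity, by 3.38 (SE 0.59, adjusted p = 0.0016), and Tox, needed for CD4 lineage cells, by 3.67 (SE 0.70, adjusted p = 0.00294).

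In the opposite direction, 15 of 21 granulocyte genes fell against wild-type thymus 1, with a median of -5.44. Mpo, the myeloperoxidase of neutrophil granules, read 6.67, 10.06, 8.45 and 6.66 on the grafts, against 14.55 on wild-type thymus 1 (log2 difference -6.59, SE 1.69, limma adjusted p = 0.0193). Of 20 macrophage genes, 14 fell (median -4.46), among them Spic, a factor of red pulp macrophages, at 6.50, 7.94, 11.27 and 6.73 on the grafts, against 13.20 on wild-type thymus 1 (adjusted p = 0.0246). All 18 erythroid genes were negative, with a median of -3.02, and 4 of them fell. Of 25 type I interferon response genes, 17 fell, with a median of -2.37. Ifit3, an interferon-induced antiviral gene, read 7.59, 10.95, 8.06 and 7.58 on the grafts, against 13.86 on wild-type thymus 1 (log2 difference -5.32, SE 1.06, adjusted p = 0.00409). In a list of kidney and pancreas genes, 4 of 14 fell, and all 4, Cela1, Cpa1, Ctrb1 and Try4, code for pancreatic acinar enzymes. Amy2a5, pancreatic amylase, was at 6.76, 6.89, 9.85 and 7.06 on the grafts, against 13.76 on wild-type thymus 1, with an adjusted p of 0.0711.

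Against wild-type thymus 3, whose TCR list mean of 11.22 lay inside the graft range, Fgf13 was the gene that rose and 10 genes fell. The comparisons with wild-type thymus 1 and 3 share the 4 grafts. The rise is 0.00787% and the falls are 0.0787% of the genes tested, and at an unadjusted p below 0.05 there were 1162 genes. Fgf13 differed by 3.62 (SE 0.56, limma adjusted p = 0.0140). Rbm44, an RNA-binding protein gene, read 7.26, 6.97, 7.01 and 7.23 on grafts 1 to 4, against 9.49 on wild-type thymus 3 and 7.10 on wild-type thymus 1 (log2 difference against wild-type thymus 3 -2.37, SE 0.14, adjusted p = 1.36e-07). Dock6 read 7.52, 7.15, 7.65 and 7.40 on the grafts, against 10.40 on wild-type thymus 3 and 7.75 on wild-type thymus 1. The 4 other Dock6 probes differed from wild-type thymus 3 by -0.27 to -0.06. The others that fell were Brinp2, Galnt9, Gh, Cldn12, 3110021A11Rik, Syce1, Mpzl2 and Efna1, at 6.67 to 7.28 on the grafts and 7.60 to 8.36 on wild-type thymus 3. Of the 10 genes that fell, Cldn12 was the one that also passed against the label, and wild-type thymus 1 read 6.80 to 7.75 for these 10.

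No member of the 30 gene lists passed the test against wild-type thymus 3 with all 4 grafts, so the lists are described by sign and median only. All 25 DNA replication genes were negative, with a median of -0.89, and 16 had all 4 grafts below wild-type thymus 3, beside 24.1% of all genes. The background for all 4 grafts above wild-type thymus 3 was 21.4%. Mcm4, a subunit of the replicative helicase, read 12.53, 12.29, 13.53 and 12.31 on the grafts, against 13.70 on wild-type thymus 3 (log2 difference -1.03, SE 0.44, limma adjusted p = 0.517). Graft 3 lay near the wild-type array for this gene, and the other 3 grafts lay more than 1 log2 unit below it. Mitosis genes were negative in 20 of 21 (median -0.71), Myc and ribosome biogenesis genes in 16 of 17 (median -0.67), and the median over all genes was -0.00.

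Of 12 Notch receptor and target genes, 9 were negative against wild-type thymus 3, none passed, and 4 had all 4 grafts below it, a share to be read beside the 24.1% of all genes. Notch1, the receptor that commits progenitors to the T lineage, read 10.02, 9.61, 11.54 and 9.54 on the grafts, against 11.80 on wild-type thymus 3 and 9.35 on wild-type thymus 1. Dtx1, a Notch target and ubiquitin ligase, read 7.51, 9.26, 12.32 and 7.26 on the grafts, against 11.60 on wild-type thymus 3 and 7.91 on wild-type thymus 1. Il2ra, the interleukin-2 receptor chain of DN2 and DN3 cells, read 6.96, 7.51, 8.12 and 7.01 on the grafts, against 10.17 on wild-type thymus 3 and 7.14 on wild-type thymus 1. The Notch list had a median of -0.80 against wild-type thymus 3 and of 0.44 against wild-type thymus 1. For Notch1 and Dtx1, graft 3 sat with wild-type thymus 3 and the other grafts sat nearer to wild-type thymus 1, and for Il2ra all 4 grafts were below wild-type thymus 3.

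Double-positive genes were positive in 12 of 14 against wild-type thymus 3, with a median of 0.95, and 7 had all 4 grafts above it. Cd8b1 read 14.96, 14.94, 14.23 and 14.90 on the grafts, against 13.13 on wild-type thymus 3 (log2 difference 1.63, SE 0.65, limma adjusted p = 0.516). Cd4, the coreceptor for class II molecules, read 10.16, 9.37, 7.94 and 10.24 on the grafts, against 7.38 on wild-type thymus 3 and 7.02 on wild-type thymus 1. Cd247, the TCR zeta chain, read 12.07, 12.11, 9.93 and 12.69 on the grafts, against 9.34 on wild-type thymus 3 (log2 difference 2.36, SE 0.98, adjusted p = 0.517). The grafts did not overlap wild-type thymus 3 for these 3 genes, and graft 3 was the lowest graft for each. Apoptosis and survival genes were positive in 16 of 20 and MHC class I genes in 14 of 16, with medians of 0.28 and 0.51.

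**Figure D4:**
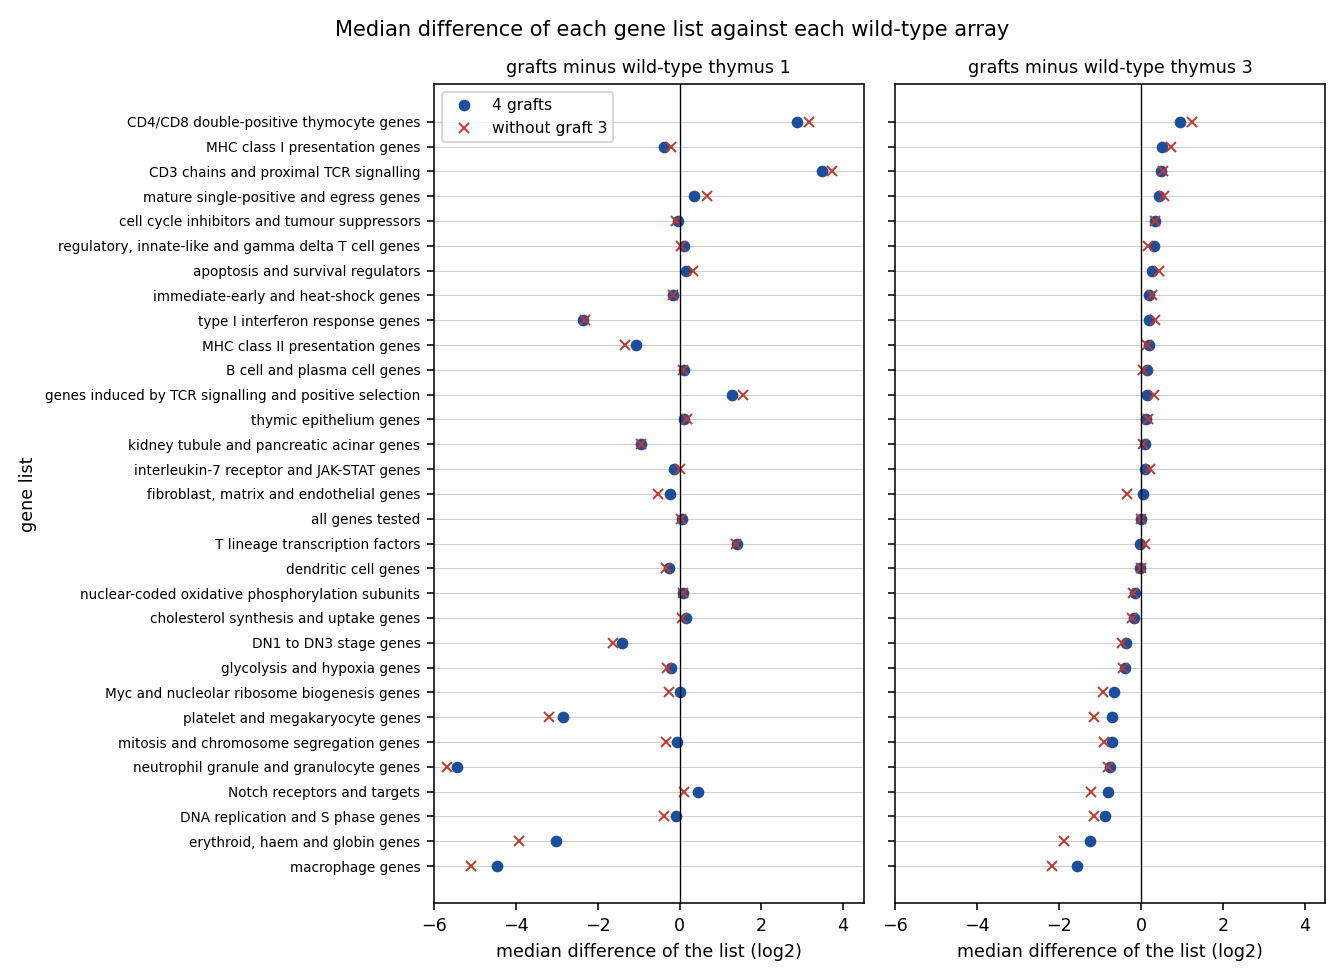
Median log2 difference (horizontal axis) of each of 30 gene lists and of all genes tested (rows), for the grafts minus wild-type thymus 1 (left panel) and minus wild-type thymus 3 (right panel); blue points use 4 grafts and red crosses leave out graft 3. The CD3 and TCR list is at 3.49 against wild-type thymus 1 and at 0.48 against wild-type thymus 3, and the macrophage list is at -4.46 and at -1.57.

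The number of genes that passed against the label turned on single arrays: it was 1437 without wild-type thymus 3, which leaves wild-type thymus 1 as the wild-type array, 1104 without graft 3, and 11 without wild-type thymus 1. The comparisons are given here without graft 3 as well, the graft with the fewest differences from wild-type thymus 3. Leaving out the graft nearest to the wild-type arrays tends to widen the differences from them in advance. The p-values without graft 3 therefore describe grafts 1, 2 and 4 and are no independent support. Without graft 3, 656 genes rose (5.16%) and 448 fell (3.52%) against the label, in place of 5 and 5. Against wild-type thymus 1, 942 rose (7.41%) and 1138 fell (8.95%), and against wild-type thymus 3, 74 rose (0.582%) and 67 fell (0.527%). Without graft 1, 2 or 4 instead, 1, 5 and 4 genes passed against the label. Whether graft 3 differs through its mice, its chip, its cells or its handling was not tested. The 3 grafts then left include the near-identical grafts 1 and 4. With these averaged as 1 sample and graft 3 left out, 147 genes passed against the label, 1316 against wild-type thymus 1 and 47 against wild-type thymus 3. All 10 genes that passed against the label with 4 grafts also passed in both of these fits, which reuse the same arrays and so give no separate support.

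Against the label without graft 3, 8 of 14 CD3 and TCR genes and 8 of 14 double-positive genes rose and none of either fell, of which 2 and 1 rose with grafts 1 and 4 averaged. The CD3 and TCR list median without graft 3 was 3.72 against wild-type thymus 1 and 0.53 against wild-type thymus 3. The double-positive list median was 3.16 and 1.25. Most of the CD3 and TCR difference from the label thus came from wild-type thymus 1. Against the label, Cd4 differed by 2.72 (SE 0.46, limma adjusted p = 0.00448, and 0.0262 with grafts 1 and 4 averaged). Rag2, the partner of Rag1 in the recombinase, differed by 2.23 (SE 0.48, adjusted p = 0.0152, and 0.0630 with that average). Among genes induced by TCR signalling and positive selection, 5 of 16 rose: Cd69, Egr2, Egr3, Cd27 and Dusp2, against 2 with the average. Cd69, an early activation antigen that also holds cells in the thymus, read 11.70, 11.46 and 11.72 on grafts 1, 2 and 4 and 7.64 on graft 3, against 8.27 and 8.10 on wild-type thymus 1 and 3. Fas, a death receptor, read 11.43, 11.44 and 11.68 on grafts 1, 2 and 4 and 9.09 on graft 3, against 8.51 and 8.32 on wild-type thymus 1 and 3. Both rose without graft 3, by 3.44 (SE 0.74, adjusted p = 0.0145) and by 3.10 (SE 0.63, adjusted p = 0.0123), with adjusted p of 0.0585 and 0.0514 where grafts 1 and 4 were averaged.

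Of 20 macrophage genes, 17 fell in that comparison, and 2 with grafts 1 and 4 averaged. Of 18 erythroid genes, 3 fell, and none with the average. Of 25 replication genes, 8 fell and none rose, and of 21 mitosis genes, 2 fell, Mki67 and Cdk1, against 1 and 0 with the average. Mki67, a marker of cycling cells, read 9.70, 9.64 and 9.72 on grafts 1, 2 and 4 and 12.54 on graft 3, against 13.04 and 12.61 on wild-type thymus 1 and 3 (log2 difference without graft 3 -3.14, SE 0.72, limma adjusted p = 0.0188, and 0.0650 with the average). Chaf1b, a chromatin assembly subunit used in S phase, fell by 1.75 (SE 0.41, adjusted p = 0.0200, and 0.0785 with the average). Macrophage, erythroid and proliferation transcript all differed here, and the replication list averaged 10.23, 10.24, 11.16 and 10.03 on grafts 1 to 4, against 10.59 and 11.34 on wild-type thymus 1 and 3. Without graft 3, the macrophage list median was -5.09 against wild-type thymus 1 and -2.17 against wild-type thymus 3. For the replication list it was -0.39 and -1.14. The part of macrophage, erythroid and proliferation transcript in each other's differences was not tested.

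Against wild-type thymus 3 without graft 3, 11 list members passed, and Egr2, Zfp36 and Egfl7 still passed with grafts 1 and 4 averaged (limma adjusted p = 0.00272, 0.0448 and 0.0311), while the others had adjusted p of 0.0661 to 0.127. Egr2, a factor induced by TCR signals in selection, rose by 2.48 (SE 0.31, limma adjusted p = 0.000825), with values of 9.88, 10.13 and 9.85 on grafts 1, 2 and 4 and 7.36 on graft 3, against 7.47 on wild-type thymus 3. Cd4 rose by 2.54 (SE 0.59, adjusted p = 0.0493) and Bcl2l1, the survival factor of double-positive cells, by 1.95 (SE 0.44, adjusted p = 0.0478), together with E2f2, a cell cycle factor, and Zfp36, which speeds the decay of cytokine messages. For Bcl2l1, E2f2 and Zfp36, wild-type thymus 1 was at 10.26, 13.11 and 11.31, within or near the range of grafts 1, 2 and 4. Hes1, a Notch target repressor, fell by 2.52 (SE 0.55, adjusted p = 0.0423), with values of 7.03, 7.25 and 7.09 on grafts 1, 2 and 4 and 9.24 on graft 3, against 9.64 on wild-type thymus 3. Mcm5, another helicase subunit, fell by 1.21 (SE 0.23, adjusted p = 0.0219), Chaf1a, the partner of Chaf1b, by 1.47 (SE 0.31, adjusted p = 0.0327) and Cdk1, the mitotic kinase, by 1.13 (SE 0.24, adjusted p = 0.0327), together with Sdc1 and Egfl7. On wild-type thymus 1, Hes1 read 7.50, near the level of grafts 1, 2 and 4, and Egr2 read 7.14.

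Outside the lists, and chosen after their values were seen, Dnmt3b and Bcl6 also passed against wild-type thymus 3 without graft 3, with adjusted p of 0.00188 and 0.127 in limma where grafts 1 and 4 were averaged. Dnmt3b, a de novo DNA methyltransferase, read 8.27, 8.56 and 8.06 on grafts 1, 2 and 4 and 9.91 on graft 3, against 9.88 and 11.03 on wild-type thymus 1 and 3, and fell by 2.73 against wild-type thymus 3 (SE 0.32, limma adjusted p = 0.000416). Bcl6, a transcriptional repressor expressed by double-positive thymocytes, read 12.57, 11.47 and 12.43 on grafts 1, 2 and 4 and 9.42 on graft 3, against 8.70 and 9.68 on wild-type thymus 1 and 3, and rose by 2.48 (SE 0.56, adjusted p = 0.0490). The lowest differences without graft 3 were those of Cenpv and Prmt7, at -3.62 and -3.46, and among the highest were Plxnd1, a semaphorin receptor of thymocytes, at 3.16, and Nsg2 at 3.13.

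Receptor gene segments differed between the arrays to unlike extents, and these too were chosen after their values were seen. Trbv13-1, a variable segment of the TCR beta locus, read 12.77, 12.58, 6.97 and 13.21 on grafts 1 to 4, against 6.81 and 6.75 on wild-type thymus 1 and 3. The mean of grafts 1, 2 and 4, 12.85, was at least 53.3-fold above each wild-type array, and graft 3 was at background. Trbv1 had the same pattern, at 10.87, 10.02, 6.95 and 11.34 on the grafts, against 6.90 and 6.97 on wild-type thymus 1 and 3. The brighter of 2 Trbv13-2 probes read 14.84, 14.91, 14.82 and 14.96 on the grafts, against 12.42 on wild-type thymus 1 and 14.78 on wild-type thymus 3. These values lay near the highest of all arrays, 15.19, and the grafts were close to wild-type thymus 3. The dimmer probe read 12.70, 12.40, 9.11 and 13.21 on the grafts, against 7.06 and 8.55 on wild-type thymus 1 and 3. Of 4 probes for beta chain variable segments, 4, 4, 2 and 4 were above background on the grafts, against 1 and 2 on the wild-type arrays. Of 18 probes for alpha chain variable segments, 13, 11, 3 and 13 were above background on grafts 1 to 4, against 2 and 3 on wild-type thymus 1 and 3. Both spleen arrays of graft hosts, at 12.00 and 12.09, carried Trbv13-1 as well, and the leukaemia arrays reached 8.36. The alpha segment count of 3 on wild-type thymus 3 lay inside the range of 2 to 9 on the T-ALL arrays. Whether the low segment values of both wild-type arrays fit their thymocyte label was not tested. The segment values are therefore no measure of the grafts against a normal thymus.

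Igkc, the constant gene of the immunoglobulin kappa chain, was above background on all 4 grafts, at 8.76, 13.15, 15.19 and 7.84, while wild-type thymus 1 and 3 read 6.96 and 7.01 and were the only arrays of the 20 where it was at background. Of 18 probes for kappa and lambda variable segments, 4, 13, 18 and 2 were above background on grafts 1 to 4, against 2 and 4 on wild-type thymus 1 and 3. Ighm, the mu heavy chain gene, read 13.25, 12.84, 14.86 and 13.26 on the grafts, against 7.57 on wild-type thymus 1 and 12.49 on wild-type thymus 3, and rose against wild-type thymus 1 (log2 difference 5.98, SE 0.90, limma adjusted p = 0.000455). Graft 3 was the highest of the 6 arrays by each of these measures. Of 18 genes of the B cell and plasma cell list, 7, 11, 13 and 7 were above background on the grafts, against 7 and 7 on wild-type thymus 1 and 3. Mzb1, a chaperone of immunoglobulin secretion, read 7.43, 8.28, 10.69 and 7.52 on the grafts, against 7.04 and 7.11 on wild-type thymus 1 and 3, and Pax5, a defining factor of B cells, was at background on all 6 arrays, between 6.86 and 7.07.

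**Figure D5:**
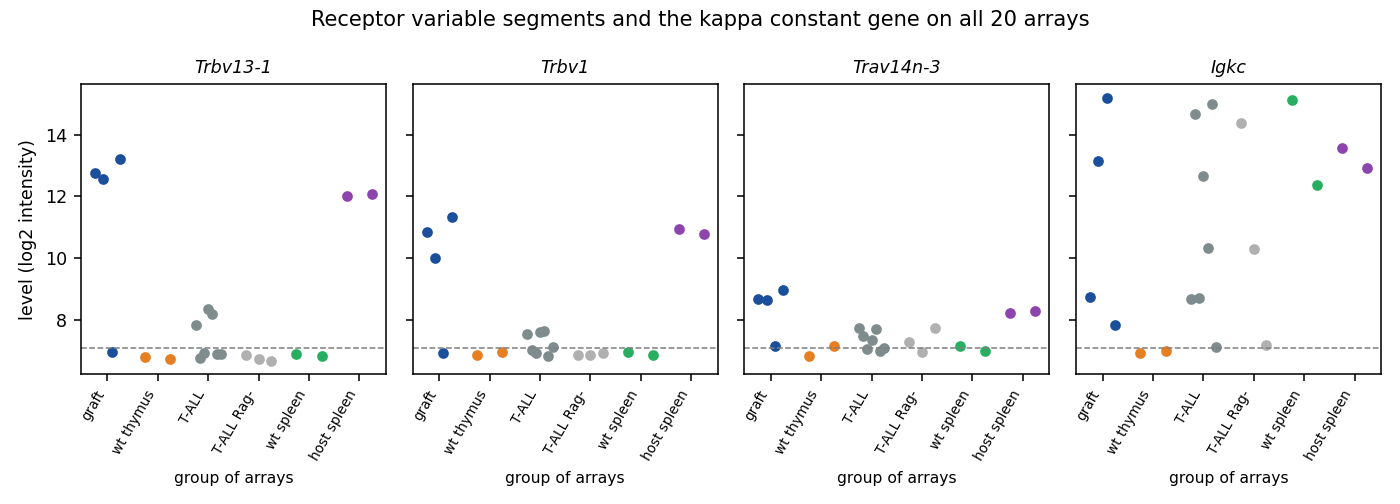
Level (log2 intensity, vertical axis) of 3 TCR variable segments and of Igkc on all 20 arrays; each point is 1 array, groups run along the horizontal axis, and the dashed line is the background threshold, 7.12. For Trbv13-1, 3 grafts lie between 12.58 and 13.21 and graft 3 lies at 6.97, while both wild-type thymus arrays lie at 6.75 and 6.81.

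Graft 2 carried transcripts at background or at lower level on the other grafts, from genes chosen in part after their values were seen. Slc34a1, the phosphate transporter of the kidney proximal tubule, read 6.76, 11.30, 6.67 and 6.80 on grafts 1 to 4, against 6.80 and 6.71 on wild-type thymus 1 and 3. Miox, an enzyme of the same tubule cells, read 6.90, 11.03, 6.91 and 6.96 on the grafts, against 6.77 and 6.87 on wild-type thymus 1 and 3. Graft 2 was the only one of the 6 arrays above background for either gene. Ccl5, a chemokine of effector T and natural killer cells, read 6.97, 11.88, 9.01 and 7.16 on the grafts, against 8.64 and 7.59 on wild-type thymus 1 and 3. Ccr7, a homing receptor of mature thymocytes, read 7.34, 9.55, 7.01 and 7.46 on the grafts, against 7.13 and 7.26 on wild-type thymus 1 and 3. The interferon list averaged 8.03, 9.27, 8.17 and 7.97 on the grafts, against 10.91 and 8.17 on wild-type thymus 1 and 3, and the MHC class II list 7.56, 9.81, 8.78 and 7.56 on the grafts, against 9.41 and 8.34 on the wild-type arrays.

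Graft 3 was the highest of the 6 arrays for several matrix and vessel genes, of which Sparc was chosen after its values were seen. Sparc, a matrix glycoprotein, read 6.89, 6.78, 10.41 and 6.54 on grafts 1 to 4, against 7.90 and 6.97 on wild-type thymus 1 and 3. The fibroblast, matrix and endothelial list averaged 7.20, 7.35, 8.96 and 7.18 on the grafts, against 8.12 and 8.08 on wild-type thymus 1 and 3, and 15 of its 15 measured genes were above background on graft 3. The platelet list, at 6.90, 7.11, 8.87 and 6.85 on the grafts, against 10.04 and 8.30 on wild-type thymus 1 and 3, had 11 of 12 genes above background on graft 3 and 1, 3 and 1 on grafts 1, 2 and 4. None of the measured genes of these lists passed the test against wild-type thymus 3.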

How the data were processed

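Biotinylated cRNA from RNA of mouse thymus, spleen and leukaemia samples was hybridised to Illumina arrays, per the labels' protocols. The authors deposited log2 intensities in a table whose sorted values differ by at most 0.01 between arrays, as quantile normalization leaves them; the software is not given in the sources used here. Groups came from the sample labels. A second deposited table, with 20 value columns whose names could not be tied to samples, was not used.

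Of 46089 probes, 35667 had a gene symbol in the platform annotation, and symbols were updated through RefSeq tables (28519 probes by gene ID, 2634 by accession, 2122 by symbol, 2336 by synonym, 56 without a match). Background was the mode of all values, 6.78, and the threshold lay 3 SD of 0.1128 above it. The brightest probe over the threshold on at least 2 arrays stood for a gene, which left 12710 genes, 4623 of them with several such probes. The limma test (version 3.58.1, R 4.3.3) with an intensity trend was fitted over all 20 arrays, for the wild-type label as 1 group and for its arrays apart, with Benjamini-Hochberg adjustment over 12710 genes and a threshold of 0.05. Where a group was at background, a fold is given as at least the brighter mean over the threshold or the dimmer value. The number of arrays limits the precision.

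The fit was tested on simulated data of 12710 genes, with independent normal noise around a single mean per gene. The simulation held no cell mixture, chip effect, near-identical grafts or divergent array. Its rates therefore apply to that setting, and recovery in the real arrays was not tested. Changes of 1, 2 and 3 log2 units were recovered at 46.3%, 95.5% and 90.9% against the label, at 29.9%, 70.1% and 90.9% against wild-type thymus 1, and at 37.3%, 73.1% and 86.4% against wild-type thymus 3.

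Genes were named by a rule: Cd3e, Rag1, Camp, Alas2, Xist and Y-linked genes; genes that passed against the label without overlap and by 1 log2 unit or more against each wild-type array; up to 5 passing members of each of 30 gene lists, or its 2 brightest; and the 8 highest and 8 lowest that passed against wild-type thymus 3 alone. Other genes were chosen after their values were seen, list members shown beside those included. The comparison, the lists and the tests were chosen with earlier results of these data known. Alternatives covered background, centring, filter, probe summary, variance model, arrays in the fit, chip, each array left out and, added after seeing the data, grafts 1 and 4 averaged, with and without graft 3. Promoter sequences are from RefSeq, and 6 of the 10 genes that passed against the label had one.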

Additional observations from a re-analysis of the deposited data

Results flagged for a closer look

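Among the 4 grafts, 1 array stood far from the other 3 in 39 of 175 genes and list means examined (22.3%), by Dixon's test at its 95% critical value. Chance passes about 1 in 20 groups, but many of these genes were chosen with their values known and the lists share genes with them, so the share is a description and is not read against chance. Graft 3 was the distant array in 31, graft 2 in 8 and grafts 1 and 4 in none.

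Graft 3 was the lowest graft for Cd8b1 (14.23), Tox (10.00), Gimap6 (8.82), Egr2 (7.36), Cd69 (7.64), Fas (9.09), Bcl2l1 (9.16), Zfp36 (10.04), Nsg2 (10.64) and Trbv13-1 (6.97). Its mean was also the lowest for the CD3 and TCR list (11.08) and for the apoptosis and survival list (9.11). For Egr2, Cd69, Fas, Bcl2l1 and Zfp36, graft 3 lay nearer to wild-type thymus 3 than the other grafts did.

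Graft 3 was the highest graft for the cycling marker Mki67 (12.54), the Notch target Hes1 (9.24), the nucleolar gene Gnl3 (13.35) and the factor Bcl11a (7.57). It was the highest for the platelet genes Gp1bb (8.19), Gp9 (8.67) and Itga2b (8.19), for the matrix gene Sparc (10.41), the endothelial gene Esm1 (9.37), Prmt7 (12.81), Wdr25 (10.49), Dst (7.38) and Lrp4 (7.41), and for the Y-linked genes Eif2s3y (7.48) and Kdm5d (8.66). The Notch list (9.17), the Myc and ribosome biogenesis list (10.33), the platelet list (8.87) and the fibroblast, matrix and endothelial list (8.96) had their highest graft mean there too.

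Graft 2 was the highest graft for the interferon-response genes Dhx58 (9.10), Ifit3 (10.95) and Isg15 (10.35), for Hey1 (7.59) and for the kidney gene Slc34a1 (11.30). It also had the highest mean of the interferon list (9.27), of the regulatory, natural killer T and gamma delta T cell list (9.14) and of the interleukin-7 and JAK-STAT list (8.72).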

How the results depend on the processing

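Counts of genes that passed moved by over 1.5 times under an alternative in 25 cases and by less in 25, and no gene difference named for the wild-type label reversed its sign. Against the label, in place of 10 genes, 3 passed with background subtracted, 4 where a probe had to be above background on 4 of the 6 arrays, 3 with the mean of a gene's probes, 2 with a fit to the 6 arrays alone, 279 with chip as a random block (estimated correlation -0.12), 1 with grafts 1 and 4 averaged and 147 with that average and graft 3 left out. Leaving out 1 array at a time gave 1 to 1437: 1 without graft 1, 5 without graft 2, 1104 without graft 3, 4 without graft 4, 11 without wild-type thymus 1 and 1437 without wild-type thymus 3. Against wild-type thymus 1, in place of 1431, 753 passed in the 6 arrays alone and 932 with grafts 1 and 4 averaged, and leaving out 1 graft gave 914 to 2080, with 914 without graft 1 and 930 without graft 4. Against wild-type thymus 3, in place of 11, 3 passed with background subtracted, 6 after centring, 7 with the filter on 2 of the 6 arrays, 0 in limma with the filter on 4 of them (960 at an unadjusted p below 0.05), 6 with no intensity trend, 19 in the 6 arrays alone and 47 with grafts 1 and 4 averaged and graft 3 left out, and leaving out 1 graft gave 7 to 141, of which 141 is the count without graft 3. The cause of these shifts was not tested. Named gene differences from the label stayed on their side of the threshold in 175 cases, lost it in 66 and gained it in 6. List medians moved by more than the spread between grafts in 30 cases, by less in 930, and some near 0 changed sign, among them that of replication against wild-type thymus 1 (-0.085, and 0.01 without graft 1). No paired analysis was possible because the labels used here pair no graft with a wild-type array. Of 12710 genes, 610 were not above background on any of the 6 arrays.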
